A study of Mus musculus with 17 samples.

Results

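Conventional type 2 dendritic cells (cDC2) were followed in 5 single-cell RNA-seq libraries of leukocytes sorted by the pan-leukocyte marker CD45 from mouse pancreatic tumours, taken 3 weeks after the tumours were implanted in the pancreas. A cell counted as cDC2 when it held at least 2 UMIs (unique molecular identifiers, each one captured transcript) of the lectin gene Cd209a and at least 5 of the MHC class II gene H2-Aa. It also had fewer than 2 UMIs of the cDC1 genes Xcr1 and Clec9a together, none of Cd3d, Cd3e, Cd3g or Cd79a, fewer than 20 of the complement genes C1qa, C1qb and C1qc, and not both Ccr7 and Fscn1 at 2 or more. Among 18546 cells with 500 genes or more and no more than 10% of UMIs from mitochondria, this gate took 189 (1.02%).

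Each library stood for 1 genotype. The flfl_CD4Cre library came from animals labelled PDL1 floxed/floxed-CD4Cre, in which both copies of Cd274, the gene of PD-L1, carry sites for Cre recombinase and Cre is driven by the Cd4 promoter, a design meant to remove the gene from T cells. The flWT_CD4Cre library came from PDL1 floxed/WT-CD4Cre, with 1 floxed copy and Cre, the flfl library from PDL1 floxed/floxed without Cre, the CD4Cre library from animals labelled with Cre alone, and the WT library from wild type. Age, sex and the number of mice behind each library are not stated in the labels. With 1 library per genotype, no difference between genotypes has a replicate check, and no p-value is given for one. The labels describe the cells both as CD45+ leukocytes and as tumour-infiltrating T cells, and dendritic cells, which are CD45+ and not T cells, were present.

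Conventional dendritic cells take up antigen and present it to T cells. Type 2 cells mainly load peptides on MHC class II for CD4 T cells and are known for the surface proteins CD11b (Itgam) and SIRPα (Sirpa) and the transcription factor IRF4, while type 1 cells (cDC1), which need IRF8 and BATF3, cross-present antigen on MHC class I. After maturation both kinds turn on Ccr7 and Fscn1 and migrate to lymph nodes. Monocytes that enter inflamed tissue can take on several cDC2 genes, Cd209a and Mgl2 among them.

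Of 13 tested genes of MHC class II presentation, 11 rose in cDC2 relative to migratory dendritic cells, against 22.1% of all genes. Relative to monocytes 10 rose, against 9.25%. The cDC2 gate requires H2-Aa and the monocyte gate does not, which favours higher levels of related genes in cDC2. Relative to cDC1, 3 of the 13 rose and 1 fell, against 7.97% and 8.98% of all genes. Promoters of this list are shown here for a short sequence that 7 of its genes share. Of these 7, H2-Aa is a gate gene and was not tested, and H2-Eb2 was lower in cDC2 than in migratory cells. RefSeq promoters on GRCm38.p6 were found for 10 of the 14 genes of the MHC class II list, and the 100 bases from 130 to 31 bases before each start were read. The letters TGATTGG, in capitals, were searched on both strands of these windows after the sequences had been seen, and lay on the gene's strand in 7 genes. H2-Aa (chr17:34287854-34287953, minus strand) and H2-Eb1 (chr17:34305737-34305836), which encode chains of the presenting molecules, read as follows.
H2-Aa: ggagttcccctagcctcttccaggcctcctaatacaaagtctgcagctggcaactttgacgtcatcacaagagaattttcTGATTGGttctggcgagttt
H2-Eb1: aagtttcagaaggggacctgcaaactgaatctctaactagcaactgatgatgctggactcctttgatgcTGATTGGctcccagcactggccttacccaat
H2-DMb1 (chr17:34153061-34153160) and H2-DMb2 (chr17:34145119-34145218) encode beta chains of the peptide exchanger H2-DM, and H2-Oa (chr17:34092249-34092348) and H2-Ob (chr17:34238775-34238874) encode its inhibitor H2-DO. These 4 lie on the plus strand.
H2-DMb1: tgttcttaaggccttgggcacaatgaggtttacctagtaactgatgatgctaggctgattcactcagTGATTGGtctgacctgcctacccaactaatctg
H2-DMb2: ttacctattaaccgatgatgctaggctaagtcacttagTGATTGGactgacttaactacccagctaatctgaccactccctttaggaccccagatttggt
H2-Oa: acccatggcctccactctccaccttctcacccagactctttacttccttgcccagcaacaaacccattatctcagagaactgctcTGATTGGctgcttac
H2-Ob: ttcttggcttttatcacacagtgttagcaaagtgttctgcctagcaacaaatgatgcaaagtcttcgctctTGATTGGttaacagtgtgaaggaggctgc
The seventh gene was H2-Eb2, and the letters were not in the windows of H2-DMa, Ctss and Lgmn. Across all RefSeq promoters of the same window, 1462 of 32851 (4.45%) held them. A match describes these letters only.

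Before any result, 2 features of the libraries need stating. The flfl_CD4Cre, flWT_CD4Cre and CD4Cre matrices list 31053 genes (the larger gene set) and name Cell Ranger 3.1.0 in their headers, while the flfl and WT matrices list 28692 genes (the smaller gene set) and name no version. The X-inactivation transcript Xist was at 730 CPM (counts of a gene scaled to the same total in every library) in flfl_CD4Cre cDC2, 655 in flWT_CD4Cre and 952 in CD4Cre, and had no UMI in flfl or WT cDC2. By the sample titles, gene set, sex-linked expression and Cre therefore differ between the same groups of libraries and cannot be told apart. The file names exchange flWT_CD4Cre and WT, and if they were right, Cre would no longer split with the gene set and the values given here for these libraries would be exchanged. The 3 libraries of the larger gene set also share cell barcodes, with 1856 shared between flfl_CD4Cre and flWT_CD4Cre, 1414 between flfl_CD4Cre and CD4Cre and 1710 between flWT_CD4Cre and CD4Cre, against at most 12 in any other pair. The median ratio of the larger to the smaller UMI total of such a barcode was 30.5 to 39.7 in these pairs. Among the cDC2, 15 of 189 had a shared barcode, of which 3, all in flWT_CD4Cre, had more UMIs in another library. Results are given with and without the shared barcodes.

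The gate took 47 of 3952 cells in flfl_CD4Cre, 24 of 3788 in flWT_CD4Cre, 66 of 2861 in flfl, 19 of 5077 in CD4Cre and 33 of 2868 in WT. The cDC2 share was 1.19% in flfl_CD4Cre (exact binomial 95% interval 0.875 to 1.58), 0.634% in flWT_CD4Cre (0.406 to 0.941), 2.31% in flfl (1.79 to 2.93), 0.374% in CD4Cre (0.226 to 0.584) and 1.15% in WT (0.793 to 1.61). The flfl library stood highest and CD4Cre lowest, and the intervals of flfl_CD4Cre and CD4Cre did not overlap. Intervals cover counting error only, and sorting and tumour size are not in them. Without shared barcodes the shares were 1.57% in flfl_CD4Cre, 0.862% in flWT_CD4Cre, 2.32% in flfl, 0.441% in CD4Cre and 1.16% in WT.

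B cells made up much of the CD4Cre library, with 221 in flfl_CD4Cre, 131 in flWT_CD4Cre, 166 in flfl, 2333 in CD4Cre and 272 in WT. Among cells other than B cells the cDC2 share was 1.26% in flfl_CD4Cre (0.927 to 1.67), 0.656% in flWT_CD4Cre, 2.45% in flfl, 0.692% in CD4Cre (0.417 to 1.08) and 1.27% in WT, so the intervals of flfl_CD4Cre and CD4Cre overlapped there. When every cell was thinned to 3000 UMIs, which left out 921 cells in flfl_CD4Cre, 1194 in flWT_CD4Cre and 1002 in CD4Cre and none in flfl or WT, the shares were 1.122%, 0.540%, 2.06%, 0.344% and 0.837% in flfl_CD4Cre, flWT_CD4Cre, flfl, CD4Cre and WT. The median number of UMIs per cDC2 was 16035 in flfl_CD4Cre, 16480 in flWT_CD4Cre, 11634 in flfl, 11448 in CD4Cre and 11734 in WT, and the summed cDC2 UMIs came to 797596 in flfl_CD4Cre, 430402 in flWT_CD4Cre, 782641 in flfl, 239403 in CD4Cre and 396382 in WT.

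Set against the other dendritic cells gated alongside, cDC2 made up 21.0% of the 3 dendritic classes in flfl_CD4Cre (15.8 to 26.9), 13.7% in flWT_CD4Cre (8.99 to 19.7), 38.6% in flfl (31.3 to 46.3), 10.98% in CD4Cre (6.74 to 16.6) and 39.3% in WT (28.8 to 50.6). Both libraries of the smaller gene set stood above all 3 of the larger gene set. Migratory dendritic cells, with Ccr7 and Fscn1 both at 2 or more, numbered 151 in flfl_CD4Cre, 131 in flWT_CD4Cre, 27 in flfl, 131 in CD4Cre and 9 in WT, while cDC1 numbered 26, 20, 78, 23 and 42 in the same libraries.

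**Figure D1:**
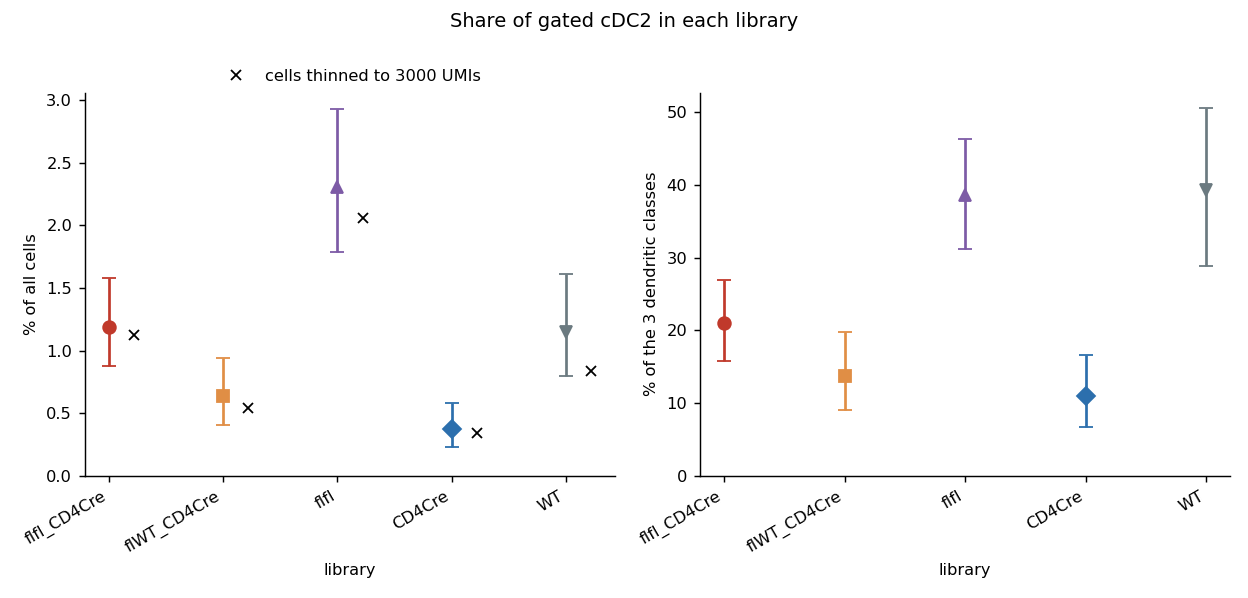
Share of cDC2 in each of the 5 libraries (points, with exact binomial 95% intervals as bars), as % of all cells on the left, with crosses for cells thinned to 3000 UMIs, and as % of cDC2, cDC1 and migratory dendritic cells together on the right. The flfl library is highest among all cells at 2.31%, and flfl and WT stand apart from the other libraries on the right at 38.6% and 39.3%.

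Cells on the 2 sides of the limits differed in some genes and not in others. Of the cDC2, 27 had exactly 2 Cd209a UMIs, 162 had 3 or more and 90 had 10 or more, against 72 cells that passed all other limits with 1. The aspartic protease gene Napsa stood at 1390 CPM in the cells with 2 UMIs, just inside the gate, and 1042 in those with 3 or more, against 1153 in those with 1, just outside. The macrophage lectin gene Mgl2 stood at 1132 and 795 CPM inside, against 964 outside. Clec10a stood at 129 CPM in the cells with 2 UMIs and 397 in those with 3 or more, against 149 in those with 1. Apoe was at 929.5 and 563 CPM inside, against 1399 outside, and Ccl17 at 721 and 493 CPM inside, against 989 outside. The 11 cDC2 with 10 to 19 C1q UMIs had 601 CPM of Napsa and 4192 of the lysozyme gene Lyz2, and the 178 with fewer than 10 had 1129 and 2003, against 159 and 10590 in the 36 cells that failed on C1q alone. At least 1 Cd209a UMI was found in 0 of 63 T cells in flfl_CD4Cre, which allows a share of up to 4.76%, and 0 of 102 in CD4Cre, which allows up to 2.94%, and in 1.02% to 1.65% in the other libraries, at median depths of 6022 to 8200 UMIs.

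Genes of the label were found in differing shares of the cells. Of the markers that an earlier clustering of these libraries gave for the class, Napsa had a UMI in 187 of 189 cells and H2-DMb2 in 153, Ppp1r14a, a phosphatase inhibitor gene, in 72 and the chemokine gene Ccl17 in 48. As these were chosen on the same cells, their levels are a description. Napsa stood at 722 CPM in flfl_CD4Cre, 976 in flWT_CD4Cre, 1411 in flfl, 664 in CD4Cre and 1577 in WT. The level of H2-DMb2 was 211 CPM in flfl_CD4Cre, 225 in flWT_CD4Cre, 934 in flfl, 430 in CD4Cre and 850 in WT. Ppp1r14a was at 37.6 CPM in flfl_CD4Cre, 39.5 in flWT_CD4Cre, 165 in flfl, 134 in CD4Cre and 164 in WT. All 3 were higher in both libraries of the smaller gene set than in any other, although for Ppp1r14a CD4Cre came close.

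Among genes known for cDC2 that the gate did not use, Mgl2 had a UMI in 116 cells, Itgam in 137, Sirpa in 152 and the lectin gene Clec10a in 130. Sirpa stood at 272 CPM in flfl_CD4Cre, 198 in flWT_CD4Cre, 118 in flfl, 205 in CD4Cre and 172 in WT, and Irf4 at 51.4, 39.5, 34.5, 45.95 and 22.7 CPM in the same libraries. The transcription factor gene Klf4, needed by part of the cDC2, stood at 197 CPM in flfl_CD4Cre, 186 in flWT_CD4Cre, 88.2 in flfl, 121 in CD4Cre and 80.7 in WT. Markers of the splenic subset that depends on NOTCH2 were close to absent. Esam was at 0 to 3.83 CPM, Clec4a4 at 0 to 17.7 CPM and Cd4 at 0 to 17.9 CPM, with a Cd4 UMI in 12 cells, while the receptor Notch2 itself stood at 51.1 to 87.7 CPM. The genes shared by conventional dendritic cells were present in every library, with Flt3, the growth factor receptor, at 18.6 to 73.2 CPM, the transcription factor Zbtb46 at 22.7 to 40.9 CPM and Itgax (CD11c) at 166 to 276 CPM.

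Genes of other cells were low for some types and not for others. The fibroblast genes Col1a1, Col1a2, Dcn, Lum and Pdgfra, the epithelial Cldn4 and the killer cell gene Prf1 had no UMI in any cDC2. Summed T cell markers stood at 10.0 CPM in flfl_CD4Cre, 0 in flWT_CD4Cre, 45.95 in flfl, 4.18 in CD4Cre and 68.1 in WT. The 8 epithelial markers together stood at 28.8 CPM in flfl_CD4Cre, 288 in flWT_CD4Cre, 76.7 in flfl, 8.35 in CD4Cre and 73.2 in WT, with Krt18 at 139, Krt19 at 90.6 and Krt8 at 58.1 CPM in flWT_CD4Cre. Natural killer cell markers summed to 120 CPM in flfl_CD4Cre, 163 in flWT_CD4Cre, 208 in flfl, 251 in CD4Cre and 75.7 in WT, and B cell markers to 99.05, 53.4, 241.5, 163 and 305 CPM in the same libraries. The part of these lists in the results was not tested. Neutrophil markers stood at 25.1 CPM in flfl_CD4Cre, 20.9 in flWT_CD4Cre, 2179 in flfl, 79.4 in CD4Cre and 754 in WT. The neutrophil gene S100a8 had a UMI in 72.7% of flfl cDC2 and 93.9% of WT cDC2, against 73.9% and 91.1% of gated T cells of those libraries, at median depths of 6710 and 6701 UMIs, so its share in cDC2 was at background there. Summed monocyte markers lay at 1647 to 2803 CPM, without Ly6c2 and Ccr2, the genes that gated monocytes. Macrophage markers without the C1q genes summed to 1800 to 4720 CPM, a list that includes Lyz2, which cDC2 are also known to express. The plasmacytoid gene Siglech had a UMI in 7 cDC2.

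Relative to cDC1 of the same libraries, cDC2 were higher in C-type lectins and genes of cDC2 identity and lower in the cDC1 programme, in MHC class I processing and in part of the cell cycle list. UMI counts were summed per library and class and compared with edgeR's quasi-likelihood test with library as a block (Benjamini-Hochberg adjusted p under 0.05, n = 5 libraries). Of 8231 genes tested, 1395 (16.9%) were called, 656 higher in cDC2 (7.97%) and 739 lower (8.98%), with genes of the gates left out. The call number was 721 without the flfl_CD4Cre library and 1261 without shared barcodes.

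Identity genes followed the label. Of 12 tested, 9 rose in cDC2 relative to cDC1 and 1 fell, with a median log2 difference of 2.37 against -0.04 over all genes. Irf4 averaged 38.8 ± 11.1 CPM in cDC2 and 4.08 ± 5.39 in cDC1 (SD, n = 5), a log2 difference of 3.47 (SE 0.42, adjusted p = 1.16e-05). Sirpa averaged 193 ± 56.0 CPM in cDC2 and 29.2 ± 24.3 in cDC1 (log2 difference 2.81, SE 0.33, adjusted p = 1.84e-05). The integrin gene Itgam stood at 448 CPM in flfl_CD4Cre, 351 in flWT_CD4Cre, 102 in flfl, 322 in CD4Cre and 85.8 in WT cDC2, and at 11.1, 31.4, 5.31, 30.2 and 7.84 CPM in cDC1 of the same libraries. The groups did not overlap, and the log2 difference was 3.82 (SE 0.34, adjusted p = 8.39e-07). Cd24a, more typical of cDC1, fell, at 192 ± 62.5 CPM in cDC2 and 348 ± 145 in cDC1 (log2 difference -0.99, SE 0.23, adjusted p = 0.00536). All 11 tested cDC1 markers fell. Irf8, the master regulator of cDC1, averaged 165 ± 67.5 CPM in cDC2 and 2145 ± 321 in cDC1 (log2 difference -3.89, SE 0.29, adjusted p = 9.67e-07). Monocyte genes rose in 3 of 10 tested and macrophage genes in 3 of 11, with none lower, against 7.97% of all genes higher. Fcgr1, of the monocyte list, stood at 40.4 to 109 CPM in cDC2, 7.40 to 36.9 in cDC1 and 209 to 570 in monocytes. Whether part of the gated cells came from monocytes was not tested.

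C-type lectins, receptors for glycans and other ligands, rose in 8 of 14 tested, and 2 fell, Clec12a and the uptake receptor Ly75 (median log2 difference 2.26). Mgl2 stood at 933 CPM in flfl_CD4Cre, 716 in flWT_CD4Cre, 894 in flfl, 551 in CD4Cre and 863 in WT cDC2, against 99.9, 300.0, 277, 83.9 and 71.8 CPM in cDC1 of the same libraries (log2 difference 2.28, SE 0.48, adjusted p = 0.00600). Its call was lost without the library block (adjusted p = 0.0638) and within either gene set alone (0.0564 and 0.256). Clec10a stood at 385 CPM in flfl_CD4Cre, 284 in flWT_CD4Cre, 429 in flfl, 489 in CD4Cre and 179 in WT cDC2, against 48.1 to 140 CPM in cDC1 (log2 difference 1.88, SE 0.28, adjusted p = 1.60e-04). Mrc1, the mannose receptor, averaged 284 ± 244 CPM in cDC2 and 3.31 ± 3.56 in cDC1 (log2 difference 5.73, SE 0.45, adjusted p = 1.14e-07). Clec4b1 had 199 UMIs in cDC2 and 2 in cDC1, a ratio of CPM of 130 (counting interval 35.6 to 1082). Both groups were without overlap for these 4 genes.

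Chemokines and their receptors differed as well. Ccl9 stood at 502 CPM in flfl_CD4Cre, 358 in flWT_CD4Cre, 266 in flfl, 184 in CD4Cre and 146 in WT cDC2, and at 0 to 20.1 CPM in cDC1 (log2 difference 4.82, SE 0.34, adjusted p = 8.41e-08). Ccr1, a receptor for CCL9 and related chemokines, averaged 151 ± 53.1 CPM in cDC2 and 16.6 ± 14.0 in cDC1 (log2 difference 3.31, SE 0.31, adjusted p = 9.67e-07). Among the receptors, Gpr183 also rose and Cxcr3 fell, with 3 UMIs in cDC2 and 182 in cDC1 (46.4-fold lower, counting interval 15.6 to 227). Among sensors of microbes, 4 of 14 rose, Tlr1, Tlr2, their adaptor Myd88 and the RNA sensor Ddx58, and 2 fell. One of these was Tlr3, the sensor of double-stranded RNA, with 4.55 ± 5.57 CPM in cDC2 and 163 ± 51.9 in cDC1 (log2 difference -5.44, SE 0.35, adjusted p = 1.98e-08), and the other Tlr11.

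Antigen presentation split by class of MHC. None of 14 MHC class I genes rose and 7 fell, among them the peptide transporter Tap1 (203 ± 43.7 CPM in cDC2 and 344 ± 110 in cDC1, log2 difference -0.96, SE 0.19, adjusted p = 0.00149) and the immunoproteasome subunit Psmb9 (323 ± 67.4 and 801 ± 224 CPM, log2 difference -1.49, SE 0.20, adjusted p = 6.05e-05). Of 13 MHC class II genes, 3 rose and 1 fell. Ctss, the protease that cuts the invariant chain, averaged 1911 ± 75.8 CPM in cDC2 and 668 ± 131 in cDC1 (log2 difference 1.36, SE 0.14, adjusted p = 2.38e-06). H2-DMb2 was at 530 ± 343 CPM in cDC2 and 190 ± 110 in cDC1 (log2 difference 1.21, SE 0.27, adjusted p = 0.00498), a call lost without the library block (adjusted p = 0.339) and in the larger gene set alone (0.106). H2-Oa rose and March1, a ligase that removes MHC class II from the surface, fell. Of 15 genes of the dendritic cell core, 6 were lower and none higher, Flt3 among them at 53.5 ± 23.0 CPM in cDC2 and 165 ± 43.7 in cDC1 (log2 difference -1.77, SE 0.34, adjusted p = 0.00185). Of 20 cell cycle genes 4 fell and none rose. The cDC1 gate also held Siglech, at 1231 CPM in CD4Cre, 209 in flfl_CD4Cre and 57.1 in flWT_CD4Cre. Without cDC1 cells that held 2 or more Siglech UMIs, 1653 genes were called.

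Among the 12 largest differences each way were also Bex6, the membrane gene pair Tmem176a and Tmem176b, the calcium-binding S100a4 and the receptor Sirpb1c on the higher side. Tmem176a lay at 234 to 516 CPM in cDC2 and 5.71 to 27.9 in cDC1 (log2 difference 4.30, SE 0.32, adjusted p = 1.29e-07). On the lower side, the retinoic acid-degrading enzyme Cyp26b1 had 1 UMI in cDC2 and 582 in cDC1 (445-fold lower, counting interval 79.5 to 17599). The adhesion gene Cadm1 averaged 3.04 CPM in cDC2 and 118 ± 43.3 in cDC1 (log2 difference -5.65, SE 0.55, adjusted p = 2.26e-06), and the scavenger receptor Cd36 fell by 5.58 on the log2 scale (SE 0.50, adjusted p = 5.39e-07). Ccl17 did not pass the test (log2 difference -0.70, adjusted p = 0.65), but without shared barcodes it did (-1.62, adjusted p = 0.0414). Neither Ppp1r14a (0.15, 0.79) nor Cd274 (-0.10, 0.96) passed.

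Against migratory dendritic cells, cDC2 were higher in MHC class II presentation, lectins and microbial sensors and lower in costimulators, MHC class I and the migratory programme. WT had only 9 migratory cells and was left out, so 4 libraries entered. Of 8231 genes, 3612 (43.9%) were called, 1820 higher in cDC2 (22.1%) and 1792 lower (21.8%), and 3529 without shared barcodes.

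MHC class II genes rose together, 11 of 13 tested against 22.1% of all genes, with a median log2 difference of 1.98 against -0.01 over all genes. H2-Ab1 stood at 7545 CPM in flfl_CD4Cre, 8415 in flWT_CD4Cre, 16981 in flfl and 8517 in CD4Cre cDC2, and at 1109, 723, 4008 and 1106 CPM in migratory cells of the same libraries (log2 difference 2.54, SE 0.43, adjusted p = 4.32e-04). Ciita, the transactivator of MHC class II genes, stood at 701 CPM in flfl_CD4Cre, 574 in flWT_CD4Cre, 102 in flfl and 902 in CD4Cre cDC2, and at 75.1, 31.0, 13.7 and 84.3 CPM in migratory cells (log2 difference 3.19, SE 0.28, adjusted p = 8.72e-08). The largest difference of the list was that of March1, with 97.7 ± 38.9 CPM in cDC2 and 2.55 ± 2.44 in migratory cells (SD, n = 4; log2 difference 4.77, SE 0.31, adjusted p = 1.15e-09). H2-DMb1 averaged 876 ± 121 and 52.7 ± 19.6 CPM (log2 difference 3.78, SE 0.30, adjusted p = 8.99e-08). H2-Eb2 went the other way, at 3.07 ± 2.96 CPM in cDC2 and 34.0 ± 17.4 in migratory cells (log2 difference -3.58, SE 0.52, adjusted p = 1.61e-05). Its promoter window, with those of H2-DMb1 and the genes printed above, holds the TGATTGG letters too.

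MHC class I moved in the opposite direction, with 11 of 14 genes lower and 2, the chaperones Calr and Pdia3, higher. B2m, the light chain, averaged 2215 ± 577 CPM in cDC2 and 4857 ± 1058 in migratory cells (log2 difference -1.32, SE 0.19, adjusted p = 4.48e-05). Of 9 costimulators, 6 fell and Cd48 rose. Cd80 stood at 10.0 CPM in flfl_CD4Cre, 27.9 in flWT_CD4Cre, 8.94 in flfl and 58.5 in CD4Cre cDC2, and at 137, 149, 98.3 and 132 CPM in migratory cells (log2 difference -2.95, SE 0.57, adjusted p = 7.76e-04). Cd70 had no UMI in cDC2 and 264 in migratory cells (at least 31.0-fold lower, from 3 UMIs over the group). The cytokine gene Il12b, a subunit of IL-12, had no UMI in cDC2 and 1586 in migratory cells (at least 186-fold lower), and Il15 averaged 3.05 ± 2.91 and 48.3 ± 5.87 CPM (log2 difference -4.11, SE 0.47, adjusted p = 8.00e-07).

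Inhibitory ligands and receptors went both ways, 7 of 11 higher and 4 lower. Cd274 stood at 43.9 CPM in flfl_CD4Cre, 37.2 in flWT_CD4Cre, 20.4 in flfl and 200.5 in CD4Cre cDC2, and at 406, 443, 147 and 320 CPM in migratory cells (log2 difference -2.46, SE 0.60, adjusted p = 0.00530). The CD4Cre cDC2 stood above the flfl migratory cells, so the groups overlapped, and without flfl_CD4Cre the adjusted p was 0.0598. Pdcd1lg2, the other PD-1 ligand, averaged 24.3 ± 14.8 CPM in cDC2 and 137 ± 62.7 in migratory cells (log2 difference -2.77, SE 0.45, adjusted p = 1.25e-04). The receptor Cd200r1 and Vsir and Lgals9 rose, Cd200r1 to 73.6 ± 18.2 CPM in cDC2 against 3.93 ± 3.05 in migratory cells (log2 difference 4.47, SE 0.40, adjusted p = 4.34e-08). Lectins rose in 11 of 14 tested, with Clec10a at 397 ± 86.6 and 4.72 ± 4.14 CPM (log2 difference 6.33, SE 0.41, adjusted p = 5.62e-09), and Ly75 fell.

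All 13 tested markers of the migratory state were lower in cDC2. Cacnb3, a calcium channel subunit, stood at 3.76 CPM in flfl_CD4Cre, 2.32 in flWT_CD4Cre, 1.28 in flfl and 4.18 in CD4Cre cDC2, and at 825, 768, 475 and 830 CPM in migratory cells (log2 difference -8.17, SE 0.62, adjusted p = 1.27e-07). The adenylate cyclase Adcy6, Tmem150c, Npr1, Arpin and Arc had no UMI in cDC2 and 1337, 696, 448, 326 and 362 in migratory cells, which makes them at least 157-, 81.8-, 52.7-, 38.3- and 42.6-fold lower. Of 14 sensors 6 rose and none fell, the inflammasome gene Nlrp3 among them at 37.7 ± 14.3 and 3.19 ± 3.34 CPM (log2 difference 3.95, SE 0.59, adjusted p = 3.80e-05). Ccl22 and Ccl5, chemokines of mature cells, fell, Ccl22 with 59.5 ± 33.8 CPM in cDC2 and 1881 ± 493 in migratory cells (log2 difference -5.71, SE 0.83, adjusted p = 1.37e-04).

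Relative to monocytes, gated on Ly6c2 and Ccr2 without Cd209a, cDC2 were higher in the dendritic cell core and in MHC class II genes and lower in monocyte, macrophage, interferon and glycolysis genes. Of 8231 genes, 1674 (20.3%) were called in the 5 libraries, 761 higher in cDC2 (9.25%) and 913 lower (11.1%). The count was 1113 without the flfl_CD4Cre library and 1657 without shared barcodes. The monocyte gate held Siglech at 33.6 CPM in flfl_CD4Cre, 21.3 in flfl, 63.5 in CD4Cre and 144 in WT, and none in flWT_CD4Cre. No count was made without these monocytes.

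The dendritic cell core separated them, with 13 of 15 genes higher and none lower (median log2 difference 2.94). Zbtb46 had 93 UMIs in cDC2 and 2 in monocytes, a ratio of CPM of 123 (counting interval 33.0 to 1028), and stood at 22.7 CPM or more in every cDC2 sum. Flt3 stood at 69.0 CPM in flfl_CD4Cre, 18.6 in flWT_CD4Cre, 65.2 in flfl, 41.8 in CD4Cre and 73.2 in WT cDC2, and at 5.98, 2.61, 5.68, 9.68 and 24.4 CPM in monocytes (log2 difference 2.94, SE 0.45, adjusted p = 2.40e-04). Kmo, an enzyme of tryptophan breakdown found in dendritic cells, averaged 222 ± 99.8 and 19.7 ± 11.8 CPM (log2 difference 3.61, SE 0.28, adjusted p = 7.14e-08). Sirpa and Zeb2, both also expressed by monocytes, did not pass (adjusted p = 0.369 and 0.0599), and Itgam was lower in cDC2, at 262 ± 160 CPM against 520 ± 313 in monocytes (adjusted p = 0.00764).

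Of 13 MHC class II genes 10 rose and 2, the proteases Ctss and Lgmn, fell. The cDC2 gate requires H2-Aa, which the monocyte gate does not, so the gates themselves favour higher levels of related genes in cDC2. H2-Oa stood at 86.5 CPM in flfl_CD4Cre, 184 in flWT_CD4Cre, 385 in flfl, 146 in CD4Cre and 583 in WT cDC2, and at 2.99, 1.74, 11.4, 3.23 and 13.6 CPM in monocytes (log2 difference 5.44, SE 0.28, adjusted p = 3.74e-10). H2-DMb2 averaged 530 ± 343 CPM in cDC2 and 13.1 ± 10.1 in monocytes (log2 difference 5.31, SE 0.33, adjusted p = 4.54e-08). Mgl2 averaged 791 ± 157 and 18.1 ± 14.7 CPM (log2 difference 5.87, SE 0.59, adjusted p = 2.41e-05) and Ccl17 510 ± 581 and 9.03 ± 11.6 CPM (log2 difference 5.59, SE 0.98, adjusted p = 0.00168), although neither passed within the smaller gene set (adjusted p = 0.119 and 0.349). Klrd1, a lectin-like gene also used by killer cells, averaged 297 ± 76.9 CPM in cDC2 and 11.3 ± 7.58 in monocytes (log2 difference 4.98, SE 0.44, adjusted p = 2.68e-06).

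Of 11 macrophage genes 10 fell, and Mrc1 rose, at 284 ± 244 CPM in cDC2 against 66.6 ± 62.5 in monocytes (log2 difference 2.05, SE 0.29, adjusted p = 6.40e-05). Lyz2 stood at 3197 CPM in flfl_CD4Cre, 2816 in flWT_CD4Cre, 1623 in flfl, 589 in CD4Cre and 1405 in WT cDC2, and at 10277, 8279, 35525, 8395 and 23160 CPM in monocytes (log2 difference -3.00, SE 0.66, adjusted p = 0.00686). The chitinase-like gene Chil3 averaged 2.93 ± 3.67 and 1249 ± 342 CPM (log2 difference -9.50, SE 1.18, adjusted p = 1.49e-04), and the arginine-degrading enzyme Arg1 12.1 ± 4.86 and 1330 ± 1051 CPM (log2 difference -6.44, SE 0.75, adjusted p = 8.43e-05). For Arg1 the adjusted p was 0.240 within the smaller gene set. Type I interferon-stimulated genes fell in 13 of 18 and glycolysis and hypoxia genes in 14 of 15, with none higher in either list. Chemokines fell in 8 of 16, Ccl2 among them (log2 difference -4.99, SE 0.51, adjusted p = 1.69e-05), and Ccl17 alone rose. Ccl9, higher in cDC2 than in cDC1, stood at 787 to 849 CPM in monocytes against 146 to 502 in cDC2. C-type lectins went both ways, with 6 of 14 higher and 5 lower (median log2 difference -0.44). Of 14 sensors of microbes 6 fell and none rose. Higher lectins and sensors as lists were therefore not seen relative to monocytes.

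**Figure D2:**
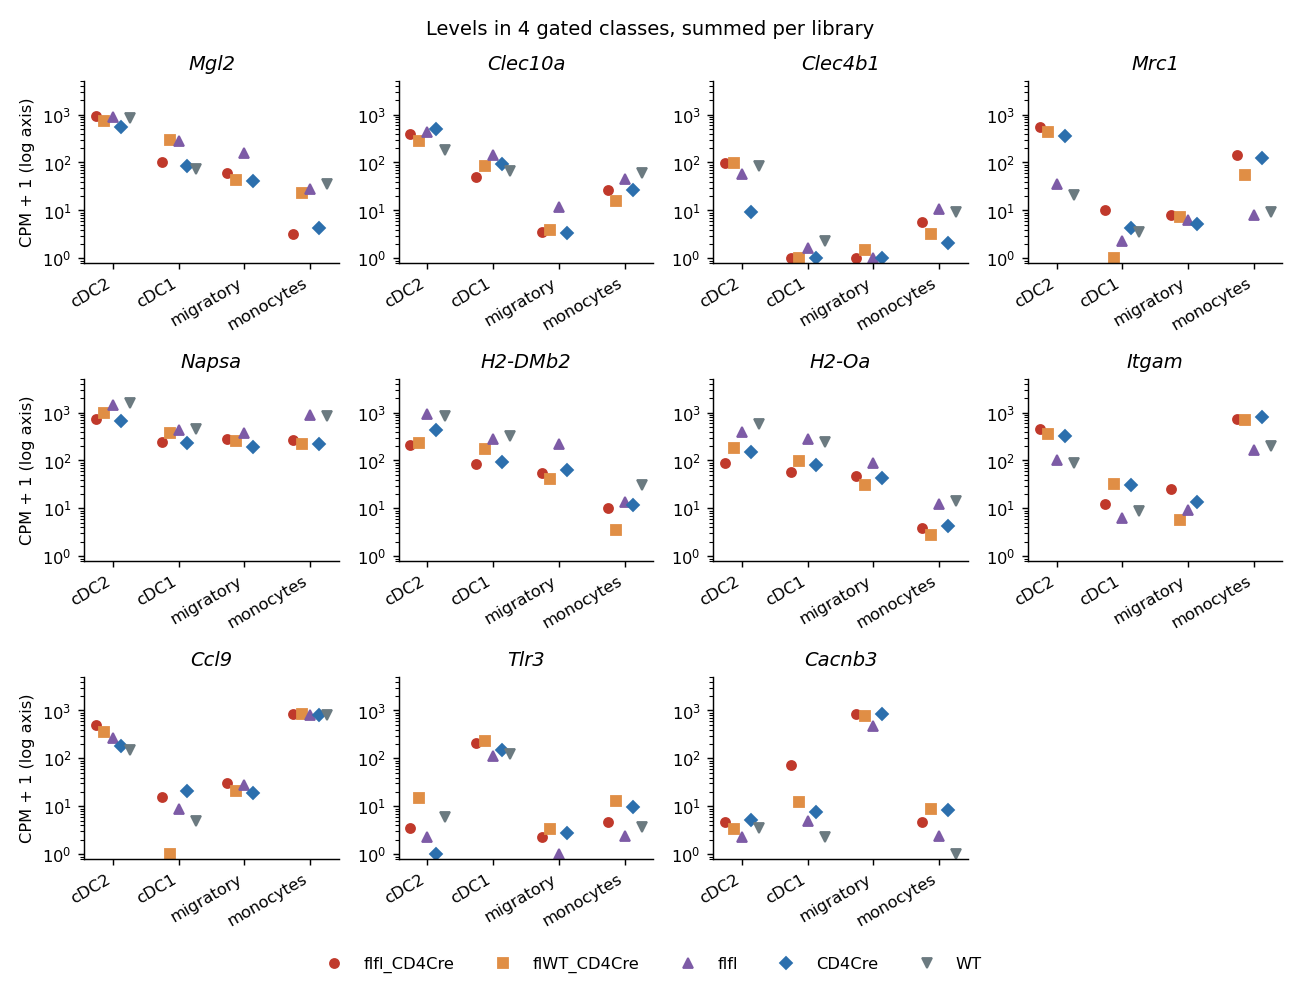
CPM plus 1 (log axis) of 11 genes in cDC2, cDC1, migratory dendritic cells and Ly6c2 monocytes, 1 point per library. Mgl2 and Clec10a are high in all 5 cDC2 sums, Tlr3 stands out in cDC1 and Cacnb3 in migratory cells, where WT is not drawn because it had 9 cells.

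The genotype pair that differs by the floxed Cd274 with Cre present in both, flfl_CD4Cre against CD4Cre, was compared in 47 and 19 cDC2 with no replicate. The level that 3 UMIs stand for was 3.76 CPM in flfl_CD4Cre and 12.5 CPM in CD4Cre. Genes were counted as past 2-fold when the ratio of CPM plus 10 reached 2, the exact Poisson 95% intervals did not overlap, and at least 1 of these libraries had 50 CPM. Of 3653 genes that reached 50 CPM, 179 (4.90%) were past 2-fold, 100 higher in flfl_CD4Cre (2.74%) and 79 lower (2.16%). Scaled by TMM the count was 177, 122 higher and 55 lower. With each cell thinned to 3000 UMIs, 48 genes were past 2-fold, 24 of them among the 179. Without shared barcodes 122 were past 2-fold, 60 higher and 62 lower, 96 of them among the 179. When the cell with the most UMIs of each gene was removed from each library, 179 were past 2-fold, 131 higher and 48 lower, 127 of them in common.

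Cd274, the floxed gene, was itself past 2-fold. In cDC2 it stood at 43.9 CPM in flfl_CD4Cre, 37.2 in flWT_CD4Cre, 20.4 in flfl, 200.5 in CD4Cre and 32.8 in WT, a log2 difference of -1.97 between flfl_CD4Cre and CD4Cre, and CD4Cre was the library that stood apart. A UMI was found in 15 of 47 cDC2 in flfl_CD4Cre, 8 of 24 in flWT_CD4Cre, 13 of 66 in flfl, 12 of 19 in CD4Cre and 9 of 33 in WT. Gated T cells, the intended target of the deletion, held Cd274 at 66.4 CPM in flfl_CD4Cre, 53.8 in flWT_CD4Cre, 9.69 in flfl, 67.1 in CD4Cre and 11.2 in WT. The tags of these libraries can lie outside the deleted part of the gene, so these levels do not check the deletion. The place of CD4Cre differed between classes. It was also the highest library in C1q macrophages, at 130 CPM in flfl_CD4Cre, 176 in flWT_CD4Cre, 43.8 in flfl, 203 in CD4Cre and 31.7 in WT, and by a small margin in T cells. It was not the highest in cDC1, migratory cells or monocytes. In cDC1 Cd274 was at 98.0 CPM in flfl_CD4Cre and 50.3 in CD4Cre, in migratory cells at 406 and 320 CPM, and in monocytes at 158 and 112 CPM.

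Genes induced by interferon gamma leaned one way. Of 16 that reached 50 CPM, 5 were lower in flfl_CD4Cre and none higher, against 2.16% of all genes lower. Cxcl9, a chemokine for activated T cells, stood at 12.5 CPM in flfl_CD4Cre, 260 in flWT_CD4Cre, 29.4 in flfl, 430 in CD4Cre and 5.05 in WT, a log2 difference of -4.29 between flfl_CD4Cre and CD4Cre. Its partner Cxcl10 stood at 40.1 CPM in flfl_CD4Cre, 218 in flWT_CD4Cre, 71.6 in flfl, 535 in CD4Cre and 0 in WT (-3.44). Cxcl10 had a UMI in 6.38% of flfl_CD4Cre cDC2, below the 12.7% of gated T cells there, and so was at background in that library, whereas the 21.1% in CD4Cre stood above 4.90% of T cells. The guanylate-binding protein gene Gbp5 was at 45.1 CPM in flfl_CD4Cre, 53.4 in flWT_CD4Cre, 8.94 in flfl, 146 in CD4Cre and 2.52 in WT. For Cxcl9, Cxcl10 and Gbp5, CD4Cre was the highest library and flfl_CD4Cre lay within the range of the others. The feedback inhibitor Socs1 was at 32.6 CPM in flfl_CD4Cre and 87.7 in CD4Cre. The fifth gene was Cd274. All 5 remained past 2-fold without the top cell of each library. In CD4Cre, however, 2 of the 19 cells held 54 and 68 of the 128 Cxcl10 UMIs, so removal of 1 cell does not show how far its difference rests on few cells.

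Part of the chemokine list was also lower. Of 7 chemokines at 50 CPM, Cxcl9, Cxcl10, Cxcl16 (69.0 CPM in flfl_CD4Cre, 175 in CD4Cre) and Ccl17 were lower and Ccl9 (502 and 184 CPM) was higher. Cxcl16 stood at 107 CPM in flWT_CD4Cre, 93.3 in flfl and 129 in WT, so flfl_CD4Cre was lowest and CD4Cre highest. Ccl17 stood at 80.2 CPM in flfl_CD4Cre, 156 in flWT_CD4Cre, 1282 in flfl, 986 in CD4Cre and 45.4 in WT, and 76.7% of its UMIs in CD4Cre and 67.2% in flfl_CD4Cre came from 1 cell each. Of 2 cytokine genes at 50 CPM 1 was lower, Il1b, which stood at 115 CPM in flfl_CD4Cre, 191 in flWT_CD4Cre, 1487 in flfl, 535 in CD4Cre and 404 in WT (log2 difference -2.12). Nfkbia, an inhibitor and target of NF-kappaB, stood at 99.1 CPM in flfl_CD4Cre, 123 in flWT_CD4Cre, 870 in flfl, 334 in CD4Cre and 315 in WT (-1.66). Of 6 costimulators that reached 50 CPM, 3 were lower, Cd80 (10.0 CPM in flfl_CD4Cre, 58.5 in CD4Cre), Cd83 (57.7 and 134) and Icam1 (36.4 and 96.1). None of the 3 was past 2-fold without its top cells. In flWT_CD4Cre, flfl and WT, Cd80 was at 27.9, 8.94 and 5.05 CPM, Cd83 at 116, 197 and 22.7 and Icam1 at 44.1, 61.3 and 47.9. CD4Cre was the highest library for Cd80 and Icam1, and flfl_CD4Cre the lowest for Icam1 only. Ass1, an enzyme of arginine synthesis, stood at 60.2 CPM in flfl_CD4Cre, 67.4 in flWT_CD4Cre, 162 in flfl, 301 in CD4Cre and 98.4 in WT (-2.15).

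Lectins and some myeloid genes were higher. Of 11 lectins at 50 CPM, 5 were higher in flfl_CD4Cre and none lower, against 2.74% of all genes higher. Clec4b1 stood at 97.8 CPM in flfl_CD4Cre, 97.6 in flWT_CD4Cre, 56.2 in flfl, 8.35 in CD4Cre and 83.3 in WT, where the CD4Cre level was 2 UMIs and the ratio 11.7 (counting interval 3.13 to 98.4). The others were Clec4a3 (247 CPM in flfl_CD4Cre, 75.2 in CD4Cre), Cd209d (128 and 33.4), Clec4a2 (123 and 45.95) and Clec12a (67.7 and 16.7). In flWT_CD4Cre, flfl and WT, Clec4a3 stood at 123, 63.9 and 47.9 CPM and Cd209d at 27.9, 152 and 126. Clec4a2 stood there at 105, 67.7 and 144 CPM and Clec12a at 53.4, 52.4 and 68.1. CD4Cre was the lowest library for Clec4b1, Clec4a2 and Clec12a. WT lay above flfl_CD4Cre for Clec4a2 and Clec12a, and flfl above it for Cd209d. Lyz2 was past 2-fold as well, at 3197 CPM in flfl_CD4Cre and 589 in CD4Cre (log2 difference 2.42), with flWT_CD4Cre at 2816, flfl at 1623 and WT at 1405 CPM. So were 2 of 7 monocyte genes that reached 50 CPM, F13a1 (96.5 and 12.5) and Vcan (63.9 and 16.7), though Vcan not without its top cells. The summed macrophage list stood at 4720 CPM in flfl_CD4Cre, 3806 in flWT_CD4Cre, 3422 in flfl, 1800 in CD4Cre and 3716 in WT, and its part in these results was not tested. With fewer than 5 C1q UMIs per cell in place of 20, 162 genes were past 2-fold, and Lyz2 was among them.

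Other genes with levels in flfl_CD4Cre outside those of all 4 other libraries included the septin Sept3 (108 CPM in flfl_CD4Cre and 1 UMI in CD4Cre, ratio 25.8, counting interval 4.51 to 1031), the calpain Capn2 (124 and 12.5 CPM, ratio 9.91, 3.29 to 48.9) and Add3, a cytoskeletal adducin (140 and 20.9 CPM, log2 difference 2.28). The protease Furin (137 and 37.6 CPM, 1.62) was also higher. On the lower side Ly6i (2.51 and 62.7 CPM), Itgae (2.51 and 50.1) and Plet1 (6.27 and 75.2) lost their place without their top cells, and Plet1 came from 1 cell in each of the 2 libraries. Of 12 MHC class II genes none was past 2-fold in either direction, with Cd74 at 18502 CPM in flfl_CD4Cre and 19173 in CD4Cre and H2-Ab1 at 7545 and 8517 CPM. Nor was any of 14 MHC class I genes, or of 7 genes stimulated by type I interferon.

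**Figure D3:**
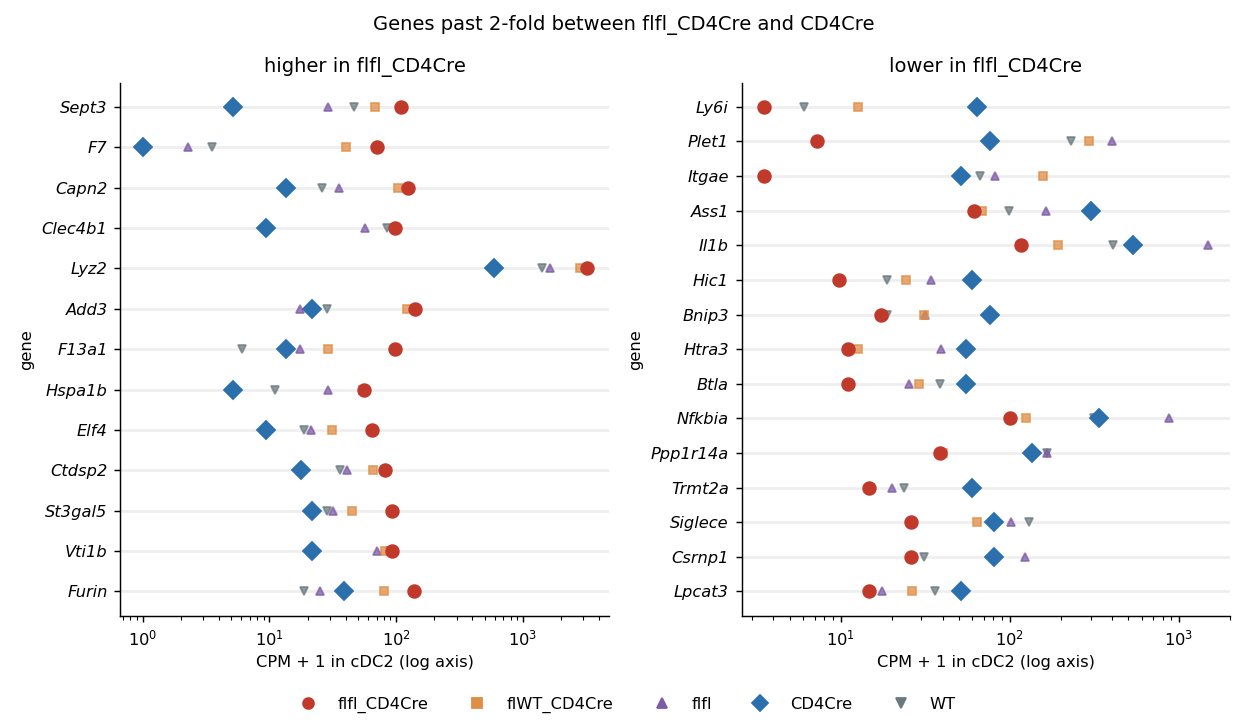
CPM plus 1 (log axis) in cDC2 of each library for genes most above (left panel) and most below (right panel) in flfl_CD4Cre relative to CD4Cre among those outside all other libraries. Lyz2 is at 3197 CPM in flfl_CD4Cre and 589 in CD4Cre, while Il1b is lowest in flfl_CD4Cre at 115 CPM.

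Cells of 1 library differed among themselves in a few genes. A UMI of Il1b was found in 44.7% of cDC2 in flfl_CD4Cre, 29.2% in flWT_CD4Cre, 89.4% in flfl, 57.9% in CD4Cre and 84.8% in WT, against 4.76%, 9.64%, 67.5%, 2.94% and 53.9% of gated T cells of the same libraries, so part of the high share in flfl and WT also appeared in cells that should lack the gene. Thinned to 3000 UMIs per cell the cDC2 shares were 19.6% in flfl_CD4Cre, 22.7% in flWT_CD4Cre, 74.2% in flfl, 47.4% in CD4Cre and 51.5% in WT. A UMI of Ccl17 was found in 8.51% of cDC2 in flfl_CD4Cre, 20.8% in flWT_CD4Cre, 40.9% in flfl, 42.1% in CD4Cre and 12.1% in WT, against 1.59%, 6.02%, 14.6%, 2.94% and 3.75% of T cells. Each cDC2 share stood above that of T cells, which were shallower. Of the 48 cells with Ccl17, 43 also held Il1b, as did 126 of all 189. Within libraries, Il1b was held by 2 of the 4 cells with Ccl17 in flfl_CD4Cre (21 of all 47) and 5 of 5 in flWT_CD4Cre (7 of 24). It was held by 26 of 27 in flfl (59 of 66), 7 of 8 in CD4Cre (11 of 19) and 3 of 4 in WT (28 of 33).

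The mannose receptor gene Mrc1 was found in 80 of the 189 cells. It had a UMI in 31 of 47 cDC2 in flfl_CD4Cre, 13 of 24 in flWT_CD4Cre, 17 of 66 in flfl, 11 of 19 in CD4Cre and 8 of 33 in WT, against 2.12% to 7.84% of T cells. Of the 80 cells with Mrc1, 72 also held Ccr2, the receptor by which monocytes and pre-dendritic cells enter tissue. Ccr2 was held by 130 of all 189 cells. Both genes stood higher in the libraries of the larger gene set, so the pooled counts mix unlike libraries. Among cells with Mrc1, Ccr2 was held by 31 of 31 in flfl_CD4Cre (46 of all 47), 13 of 13 in flWT_CD4Cre (19 of 24) and 10 of 11 in CD4Cre (15 of 19). It was held by 14 of 17 in flfl (38 of 66) and 4 of 8 in WT (12 of 33). Of the 80 cells with Mrc1, 14 held Ccl17. Within libraries, Ccl17 was held by 2 of the 31 cells with Mrc1 in flfl_CD4Cre (4 of all 47), 1 of 13 in flWT_CD4Cre (5 of 24), 6 of 17 in flfl (27 of 66), 3 of 11 in CD4Cre (8 of 19) and 2 of 8 in WT (4 of 33). Cxcl9 and Cxcl10 were found in 23 and 19 cells and together in 5, and 11 of the 19 cells with Cxcl10 held Cd274. These co-occurrences grow with the UMI total of a cell and carry no test.

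**Figure D4:**
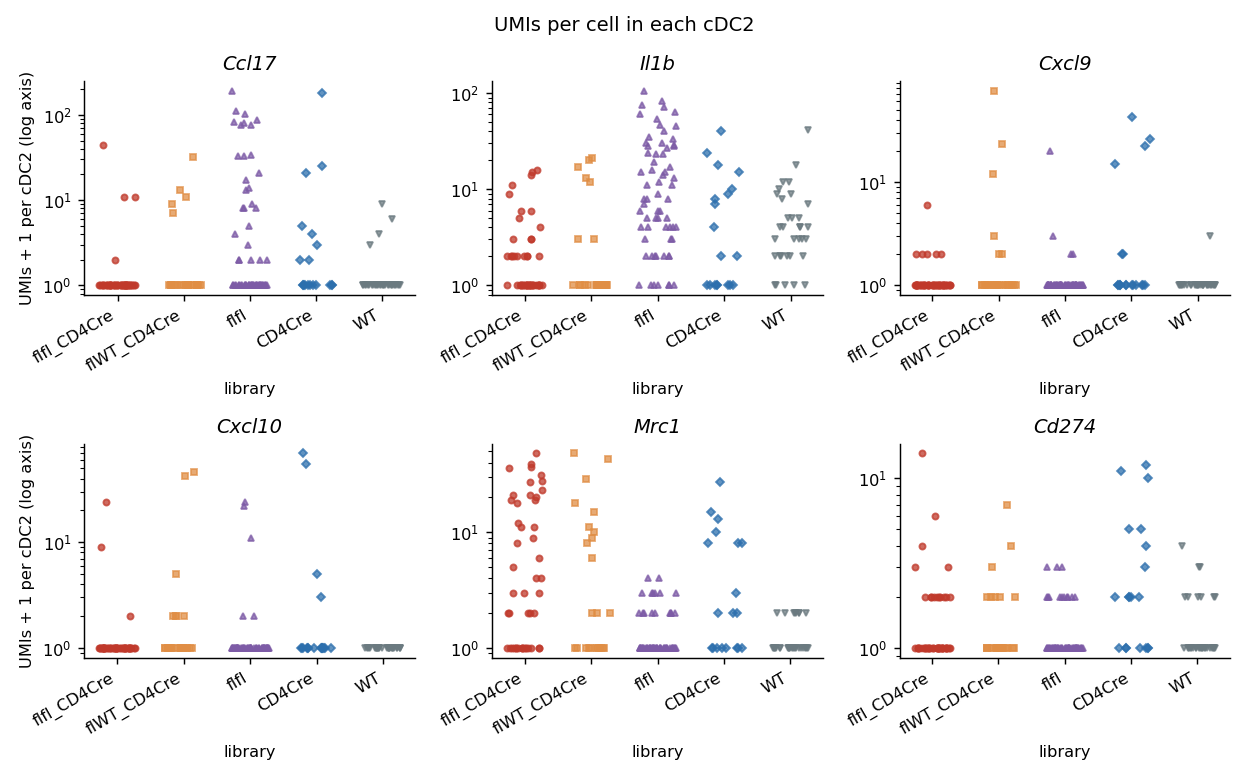
UMIs plus 1 (log axis) of Ccl17, Il1b, Cxcl9, Cxcl10, Mrc1 and Cd274 in each cDC2, by library. Most cells lie at 0 for Ccl17, Cxcl9 and Cxcl10, and 1 cell of CD4Cre holds 76.7% of that library's Ccl17 UMIs.

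The libraries also split by gene set. In cDC2, 3528 genes reached 50 CPM, and 1122 (31.8%) were past 2-fold with no overlap between the 3 libraries of the larger gene set and the 2 of the smaller gene set, 920 higher in the first (26.1%) and 202 lower (5.73%). Mrc1 stood at 558 CPM in flfl_CD4Cre, 441 in flWT_CD4Cre and 363 in CD4Cre, against 34.5 in flfl and 20.2 in WT. The transactivator Ciita was at 701, 574 and 902 CPM in flfl_CD4Cre, flWT_CD4Cre and CD4Cre, against 102 in flfl and 103 in WT, and Zeb2, a repressor of cDC1 fate, at 626, 544 and 305 CPM against 75.4 and 85.8. The products under the control of CIITA ran in the opposite direction. Cd74, the invariant chain, stood at 18502 CPM in flfl_CD4Cre, 18097 in flWT_CD4Cre and 19173 in CD4Cre, against 43926 in flfl and 43092 in WT, and H2-Ab1 at 7545, 8415 and 8517 CPM against 16981 and 17150.

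The split was found in other cells of the same libraries too. In cDC1, 848 genes (26.0% of those tested) were higher in the larger gene set and 121 (3.71%) lower, and in monocytes 1023 (27.96%) and 328 (8.96%). Of the genes higher there in cDC2, 553 were higher in cDC1 as well, 60.1% of the cDC2 list and 65.2% of the cDC1 list, and 610 in monocytes (66.3% and 59.6%). Of the genes lower in cDC2, 65 were lower in cDC1 (32.2% of the cDC2 list and 53.7% of the cDC1 list) and 106 in monocytes (52.5% and 32.3%). In cDC1, Ciita was at 424 CPM in flfl_CD4Cre, 460 in flWT_CD4Cre and 379 in CD4Cre, against 105 in flfl and 69.2 in WT, as in cDC2. Among the lower genes were the immediate early gene Fos (109, 99.9 and 71.0 CPM against 1279 and 217), S100a8 (7.52, 6.97 and 33.4 against 990 and 288) and Apoe (120, 69.7 and 159 against 1020 and 1668). Apoe had a UMI in every cDC2 and every gated T cell of flfl and WT, so that its presence in cDC2 there was at background. Gene set, Xist and, by the titles, Cre cannot be told apart in this split, and no test was made of it.

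**Figure D5:**
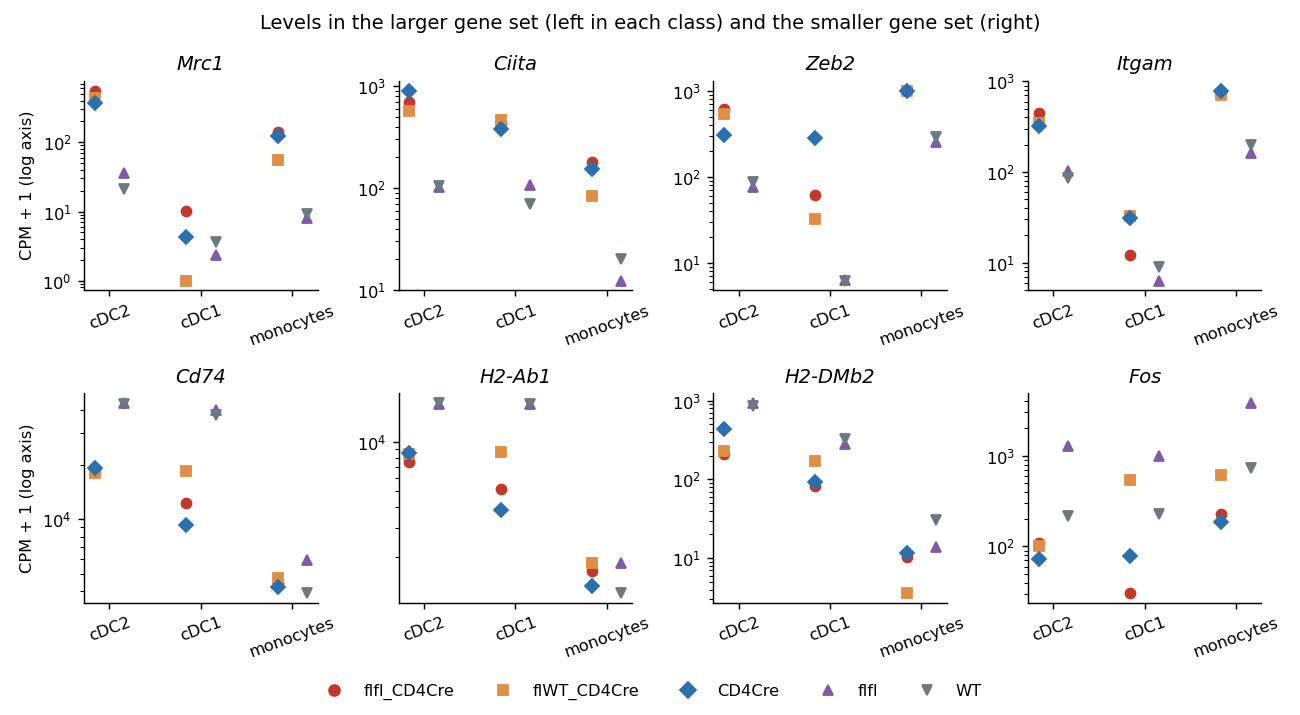
CPM plus 1 (log axis) of 8 genes in cDC2, cDC1 and monocytes of the 5 libraries, with the 3 libraries of the larger gene set left of the 2 of the smaller gene set. In cDC2 Ciita is higher in the larger gene set, at 574 to 902 CPM against 102 and 103 CPM, while Cd74 is lower, at 18097 to 19173 CPM against 43926 and 43092 CPM.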

How the data were processed

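The deposited files used are the authors' matrices of raw UMI counts per gene and cell barcode for 5 single-cell libraries, made with Cell Ranger 3.1.0 per the file headers of 3 of them; the sources used here give no version for the other 2. The 12 bulk libraries were not used. Groups follow the sample titles, which disagree with the file names for flWT_CD4Cre and WT. Of 23150 barcodes, 18546 passed the limits on genes and mitochondrial UMIs, and 28208 genes common to all libraries were used. Doublets were not removed. Scrublet (scanpy 1.11.5) put 4 cDC2 among the highest scores, and counts without them were run as an alternative.

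Cells were gated on raw UMIs. Summed UMI counts per library and class, with 10 or more cells, were fitted with edgeR 4.0.16 (TMM, default expression filter, robust quasi-likelihood) in R 4.3.3. The 4 classes shared 1 fit, with library as a block because the classes of a library come from the same tumour sample. SE is the log2 difference over the square root of F. Whether a library pools animals is not stated, so p-values refer to libraries and not to animals. With the block, they measure how differences between classes vary from library to library, with this spread shared over the 4 classes. On simulated counts of 7840 genes with 200 changed, the test against cDC1 recovered 96% of 4-fold and 23% of 2-fold changes, that against migratory cells 92% and 17%, and that against monocytes 94% and 32%.

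Genotypes have 1 library each and were compared by CPM with a pseudocount of 10 and exact Poisson intervals, which like the binomial ones cover counting error only. CPM divides by all UMIs of the summed cells over the common genes. Named genes were the 15 largest each way for flfl_CD4Cre against CD4Cre that also lay outside the other 4 libraries, the 12 largest each way with the same direction in every library for each class, members of the lists, and Cd274, Pdcd1lg2, Pdcd1, Cd80 and Cd4; genes named for the split by gene set were picked after their values were seen. The members, lists and markers were chosen with earlier results of these data known. Alternatives were DESeq2 1.42.0, its size factors, no filter, no library block, only the 2 classes compared, thinning, other limits, and each library left out. Those without shared barcodes, top cells or Siglech cells, and within a gene set, were added after the data were seen. Promoters are RefSeq's on GRCm38.p6. Some results that the naming rule would give are not reported here.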

Additional observations from a re-analysis of the deposited data

Results flagged for a closer look

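Among 72 pairs of a named gene and a class comparison, 7 had 1 library set apart from the others in the log2 difference (of CPM plus 10) between cDC2 and the other class. Chance flags about 1 in 20 groups of values in this way. Against cDC1 both cases were in the CD4Cre library. Tmem176b differed by 1.36 there, against 4.256 to 5.396 in the other libraries, and Ttc39a by -1.23, against -3.40 to -2.81. Against migratory dendritic cells, 4 cases were in flfl, which had 27 migratory cells. The ribonuclease gene Ear2 differed by 2.25 in flfl, against 4.65 to 5.08 in the other 3 libraries. Mrc1 differed by 1.52, against 4.71 to 5.06, Adcy6 by -2.56, against -4.59 to -4.37, and Cacnb3 by -5.43, against -5.98 to -5.89. Apol7c differed by -2.77 in flWT_CD4Cre, against -4.18 to -3.96. All 7 had the same direction in every library, which the rule for naming these genes required.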

How the results depend on the processing

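Of 89 alternatives to counts and shares, 75 stayed within 1.5 times or the interval of the value reported. With a limit of 1 Cd209a UMI the cDC2 share was 3.42% in flfl and 1.81% in WT. Thinned to 3000 UMIs per cell, 48 genes were past 2-fold between flfl_CD4Cre and CD4Cre, and 447 were called against cDC1, 1405 against migratory cells and 635 against monocytes. Without the library as a replicate block, 518 genes were called against cDC1 (513 of them also called with it), 2252 against migratory cells (2244) and 701 against monocytes (698). With only the 2 classes in the fit 827 were called against cDC1, within the larger gene set 871 against cDC1, and within the smaller gene set 996 against monocytes. Leaving out each library in turn gave 721 to 1312 against cDC1, 2537 to 3559 against migratory cells and 1113 to 1514 against monocytes, lowest in each case without flfl_CD4Cre. DESeq2 called 1437, 3716 and 1707. The cause of these shifts was not tested, apart from the smaller depth or number of libraries that thinning and omission bring.

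Among genes named for classes, 1292 of 1329 alternatives kept direction and call, 18 lost the call, 8 gained it and 11 turned round. All 11 concern genes that had not passed. For Cd274 against cDC1 the log2 difference was 0.20 with DESeq2, -0.84 to 0.42 with 1 library left out, and 0.50 within the smaller gene set. Cd274 against monocytes was at 1.21 within that set. Il1b against migratory cells ran from -0.43 to 0.16 with 1 library left out, positive at 0.03 without flWT_CD4Cre. Ccl17 against cDC1 ran from -1.73 to 1.71e-04, the last without WT, and passed without shared barcodes (-1.62, adjusted p = 0.0414). Ppp1r14a against cDC1 ran from -0.0596 to 0.32, and was at -0.16 within the larger gene set and -0.0236 without Siglech cells. Between flfl_CD4Cre and CD4Cre, 210 of 270 alternatives kept their place and 58 lost it. Ctdsp2 turned to -0.24 when thinned and Plet1 to 0.73 with at least 3 Cd209a UMIs. With 19 cells and 239403 UMIs, CD4Cre limits what the genotype comparison can detect.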
